A study of Mus musculus with 9 samples.

Results

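The genes described here are 10 regulators of the first gap phase of the cell cycle in the mouse embryonic kidney: the D-type cyclins Ccnd1, Ccnd2 and Ccnd3, their kinases Cdk4 and Cdk6, the transcription factors Myc and Mycn, the kinase inhibitors Cdkn1a (p21) and Cdkn1b (p27), and Rb1, the retinoblastoma gene. Every probe set that the platform annotation paired with exactly 1 of these symbols was taken, whatever its values. This gave 24 of the 20380 probe sets with 1 symbol, for 10 of 12393 genes. Of the 24 probe sets, 17 passed the filter on dim signals and were tested, and they covered 9 of the 10 genes. All probe sets of Cdk6 were too dim to be tested.

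Microdissected structures of wild-type 129 mouse kidneys at E14.5 (Theiler stage 22, sex unknown) were profiled on Affymetrix MOE430A arrays, 3 arrays per structure. The renal vesicle is the first epithelial ball of the future nephron and the s-shaped body is a later stage. The collecting duct system, the branching epithelium beside which nephrons form, was the reference structure of the design. Samples of both nephron stages were pools of 20 structures, those of the collecting duct were labelled as not pooled, and all RNA went through 2 rounds of T7 amplification. Each replicate was a separate sample of its kind of structure, which for both nephron stages means a separate pool of 20. The labels do not say which animals or litters the samples came from, so p-values measure the spread between these samples. The model shares that spread over all structures, so it mixes pools of 20 with samples labelled as not pooled. Pooling cannot be told apart from structure in comparisons against the duct.

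D-type cyclins bind CDK4 or CDK6, and the active kinases phosphorylate the retinoblastoma protein, which then releases E2F transcription factors that switch on replication genes. MYC and MYCN are transcription factors that drive growth and ribosome production, and Ccnd2 and Cdk4 are among the genes they are known to activate. p21 and p27 hold cyclin-dependent kinases in check, p21 being the textbook target of p53. In the developing kidney, Mycn is known to be needed for normal branching and nephron number.

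Deposited intensities had been scaled by the authors' software to a common trimmed mean, which lay between 500.2 and 500.3 on the 9 arrays. Array medians ran from 112.2 to 144.8. Across 12590 tested probe sets, Pearson correlations between arrays of the same structure were 0.934 to 0.981, and those between structures were 0.791 to 0.879. The ratio of the 3' to the 5' control probe set of Gapdh was 20.0 to 32.4 in s-shaped bodies and 11.6 to 18.6 on the other arrays, whereas that of Actb overlapped between structures (30.1 to 50.9 in s-shaped bodies, 32.2 to 42.5 on the other arrays). Summed intensities of 10 collecting duct markers were 37389.6 to 50565 in collecting ducts, 2219 to 4374 in renal vesicles and 1095 to 1263 in s-shaped bodies. Of these 10, 6 lay above the array median on every collecting duct array. Wnt11 went the other way, at 431, 449 and 178 in renal vesicles and 104, 92.6 and 124 in ducts. Ret, Hoxb7 and Wnt9b overlapped between ducts and renal vesicles. The sum of 9 early nephron markers was highest in renal vesicles (15799 to 19133), and that of 5 podocyte markers was highest in s-shaped bodies (38244 to 45488). Of the early nephron markers, Wt1 was higher in s-shaped bodies (5569, 4530 and 5192) than in renal vesicles (2209, 1638 and 3730). Pax8, Lhx1, Hes5, Hey1, Dll1, Jag1 and Wnt4 were highest in renal vesicles. Wnt4 was also higher in ducts (1148, 1425 and 1829) than in s-shaped bodies (21.5, 84.1 and 75.9). Markers of several neighbouring tissues moved with the structures, but sums of 5 cap mesenchyme markers overlapped. These were 398.5 to 548.5 in renal vesicles, 484 to 515.7 in s-shaped bodies and 488.7 to 654.2 in collecting ducts. Macrophage markers (5 of 5) summed to 3000.5 to 3518 in s-shaped bodies, mostly Csf1r (3115, 2696 and 3093), and to at most 751 elsewhere. Endothelial markers (8 of 8 on the array) summed to 21909.9 to 28235 in s-shaped bodies, 4757 to 10000.2 in renal vesicles and 290.2 to 407 in collecting ducts. Stromal markers (7 of 7) summed to 21523 to 28252, 850.1 to 2238 and 724 to 1111 in the same order, and erythroid markers (4 of 5) to 18117 to 21772, 430.0 to 2559.5 and 79.8 to 2435. The endothelial sum of renal vesicles was mostly Cldn5 (4449, 4178 and 9700). Of the 8 endothelial genes, it was the only 1 above the array median on every renal vesicle array. The erythroid sum of s-shaped bodies was mostly Hbb-y (19475, 17130 and 20920), and Hba-a1 overlapped between s-shaped bodies and ducts. Urothelial markers (4 of 5) summed to 12730.4 to 15133 in collecting ducts and to at most 496 elsewhere. Foxa1, Trp63 and Upk3a were each highest in ducts, where Foxa1 made most of the sum (8822, 11208 and 11507). Upk2 overlapped between structures, at 286, 400 and 259 in ducts and 291, 164 and 374 in s-shaped bodies. No marker was listed at 0, and Fgf8 was the lowest of the early nephron markers at 1.54 to 2.41. Renal vesicle replicate 3 and collecting duct replicate 2 stood apart: Podxl, a podocyte gene, read 3018 in that renal vesicle sample against 248 and 247 in the others, and the embryonic globin Hbb-y read 2313 in that duct sample against 1.48 and 5.3. By correlation over all tested probe sets, collecting duct replicate 3 was the least like its group (0.934 and 0.956, against 0.976 between the other ducts), and its summed immediate-early and stress genes were the highest of all arrays. Each array was left out in turn, and member results and list counts that rest on one are given without it. For single genes named from the lists, differences without an array are not given. The part of these other cells in the results that follow was not tested, and in whole structures fewer cells of a type and less RNA per cell cannot be told apart.

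Ccnd1, Mycn and Cdk4 were highest in renal vesicles: by their brightest probe sets they exceeded the collecting duct 8.59-fold, 6.88-fold and 1.9-fold (log2 differences 3.10 ± 0.17, 2.78 ± 0.19 and 0.92 ± 0.16, SE, 3 arrays against 3). By their brightest probe sets, Ccnd2 and Cdkn1a were highest in collecting ducts, while Ccnd3 was lowest in renal vesicles. The Ccnd2 probe sets disagreed on the renal vesicle, and the Ccnd3 calls were lost without some single arrays. Myc, Cdkn1b and Rb1 did not pass the test in any comparison. Among the 17 tested probe sets, 14 passed the limma F test over the 3 structures, against 45.5% of all 12590 tested, and so did the leading probe sets of 6 of 9 genes, against 48.4% of 7998 genes.

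**Figure D1:**
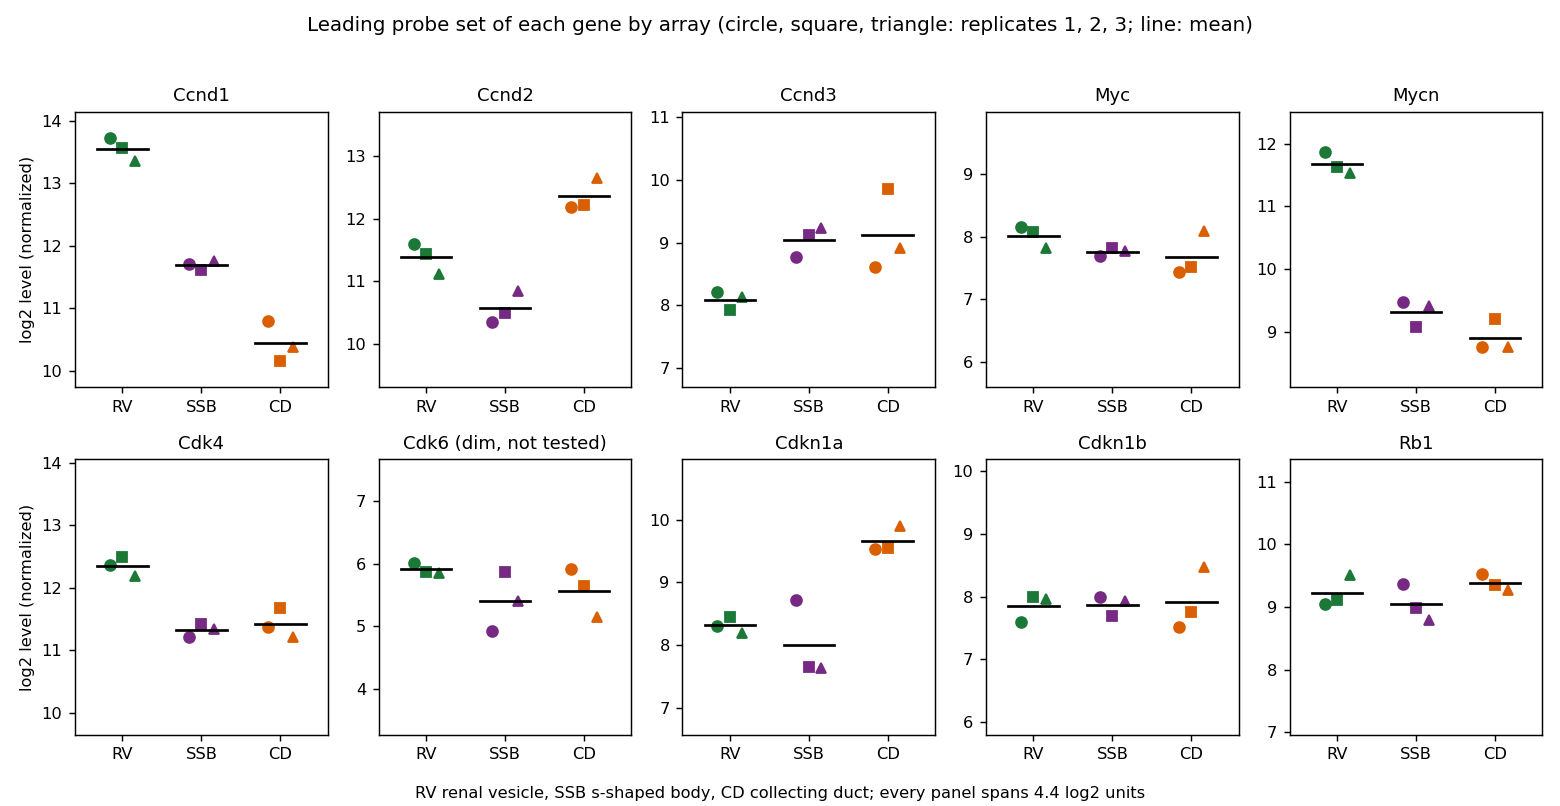
Each panel plots the normalized log2 level of 1 gene's leading probe set (vertical axis, 4.4 log2 units in every panel) in renal vesicle (RV), s-shaped body (SSB) and collecting duct (CD), with 1 point per array, the shape giving the replicate, and a line at the mean of 3. Ccnd1 and Mycn separate all 3 renal vesicle arrays from the rest, whereas the points of Myc, Cdkn1b and Rb1 overlap between structures.

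In renal vesicles against collecting ducts, 7 of the 17 tested probe sets were higher and 3 were lower, where 14.8% of all probe sets were higher and 13.5% lower (28.4% called in all). The 7 higher belong to Ccnd1, Mycn and Cdk4, and the 3 lower to Ccnd2, Ccnd3 and Cdkn1a. The arrays did not overlap for 11 of the 17, against 41.3% of all probe sets. In s-shaped bodies against collecting ducts, 2 probe sets, both of Ccnd1, were higher and 6 were lower, where 14.7% of all were higher and 13.9% lower (28.6% called). Those 6 were 5 probe sets of Ccnd2 and 1 of Cdkn1a, and the arrays did not overlap for 7 of 17, against 40.9% of all. In s-shaped bodies against renal vesicles, 1 probe set was higher (Ccnd3) and 9 were lower, where 16.3% of all were higher and 17.3% lower (33.6% called), and arrays did not overlap for 10 of 17, against 51.3% of all. The median difference of the 17 probe sets was -0.06 between renal vesicles and ducts (all probe sets 0.03), -0.10 between s-shaped bodies and ducts (all -0.04) and -0.96 between s-shaped bodies and renal vesicles (all -0.06), on the log2 scale. The collecting duct arrays serve in both comparisons against the duct, so those counts are not independent of each other. Without s-shaped body replicate 1, 5 member probe sets were called between s-shaped bodies and ducts in place of 8.

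Counted once per gene by its brightest (leading) probe set, 3 of 9 genes were higher in renal vesicles than in ducts and 3 were lower, against 15.1% and 15.3% of all 7998 genes (30.4% called). Against the duct, 1 of 9 was higher and 2 were lower in s-shaped bodies (16.5% and 15.2% of all genes, 31.7% called). From renal vesicle to s-shaped body, 1 of 9 was higher and 4 were lower (18.2% and 17.3% of all genes, 35.5% called). The arrays did not overlap for 6, 3 and 5 of the 9 genes in these comparisons, against 43.3%, 43.9% and 52.9% of all genes. Median log2 differences of the 9 genes were -0.06, -0.08 and -0.32 in the same order (all genes 0.01, -0.03 and -0.03). The last was smaller in size than the -0.96 of the 17 probe sets, among which Ccnd2 counts 5 times. The share of all called probe sets that were higher in renal vesicles than in ducts depended on scaling: 52.3% with quantile normalization (1867 higher, 1705 lower) 62.6% with median centring (2368 higher, 1412 lower) and 45.8% with no further normalization (1671 higher, 1980 lower). The median difference of all probe sets in that comparison was 0.03, 0.12 and -0.04 under these settings. Between s-shaped bodies and renal vesicles it was -0.06, -0.14 and 0.01, and 48.4%, 41.2% and 54.0% of called probe sets were higher in s-shaped bodies.

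**Figure D2:**
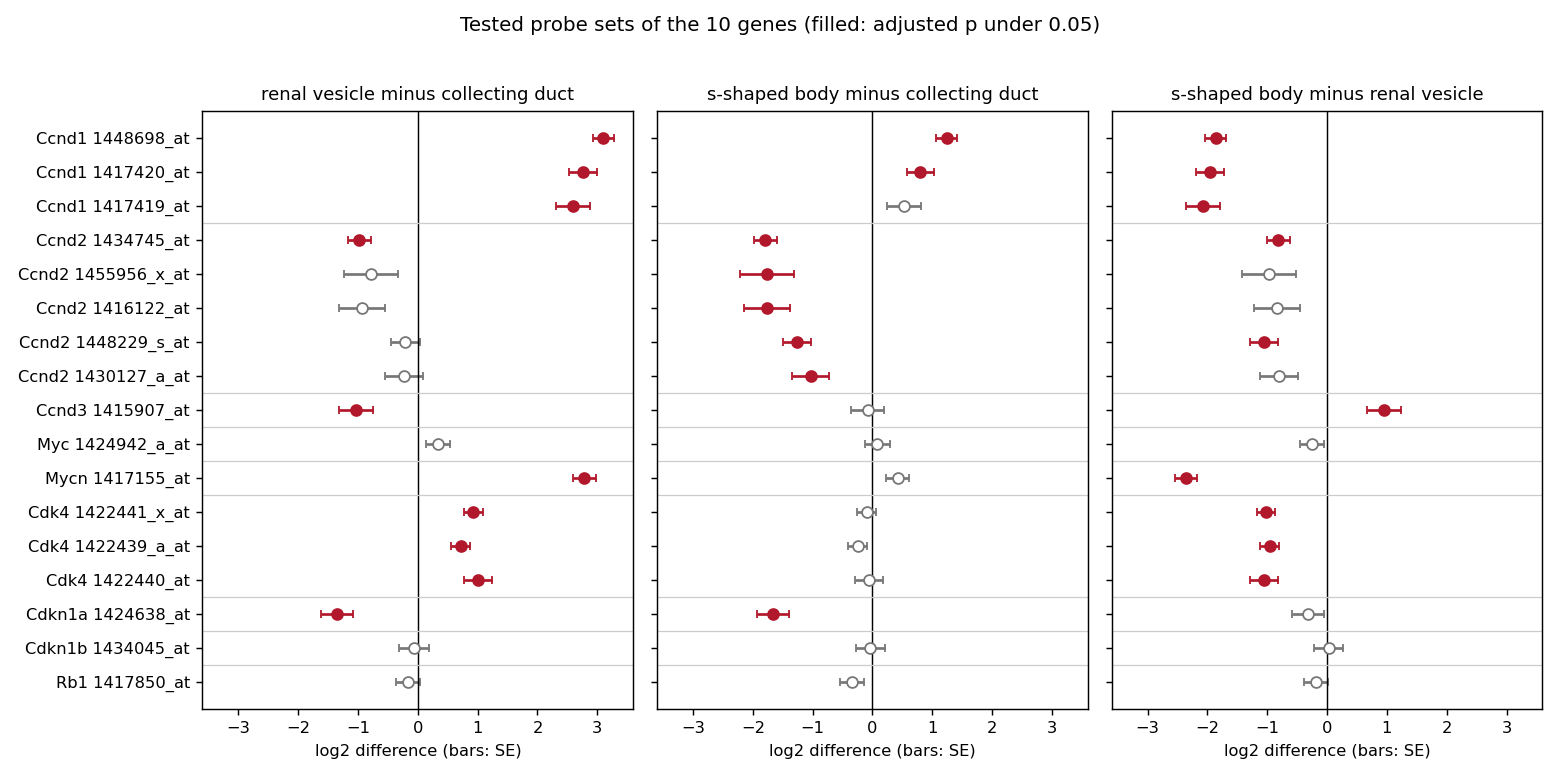
Log2 differences (horizontal axis) of the 17 tested member probe sets in the 3 comparisons, 1 panel each, with bars of 1 standard error and filled points where the limma adjusted p is under 0.05. The probe sets of Ccnd1, Mycn and Cdk4 lie to the right of 0 in renal vesicle minus collecting duct and to the left in s-shaped body minus renal vesicle, while those of Ccnd2 lie to the left in both comparisons against the duct.

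Ccnd1, the D-type cyclin most tied to growth-factor signals, was highest in renal vesicles and lowest in collecting ducts. Its leading probe set, 1448698_at, read 13876, 12288 and 11676 in renal vesicles, 3317, 3096 and 3348 in s-shaped bodies, and 1831, 1139 and 1239 in collecting ducts. The 3 structures did not overlap, so the order was renal vesicle, s-shaped body, collecting duct. Mean log2 levels were 13.55 ± 0.19, 11.69 ± 0.07 and 10.44 ± 0.32 (SD, n = 3 each). The renal vesicle exceeded the duct by 3.10 ± 0.17 (SE) on the log2 scale, which is 8.59-fold (limma adjusted p = 1.9e-07). The s-shaped body exceeded the duct by 1.24 ± 0.17 (2.37-fold, adjusted p = 0.00017) and was 1.86 below the renal vesicle (3.62-fold, adjusted p = 1.1e-05). Each of these calls held under all alternative settings run.

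The other Ccnd1 probe sets gave the same step between renal vesicle and both other structures. Probe set 1417420_at read 4994, 5611 and 6131 in renal vesicles, 1619, 1412 and 1033 in s-shaped bodies, and 659, 639.6 and 1030.4 in ducts. Probe set 1417419_at read 2527, 2553 and 1689, then 581, 486 and 485, then 208, 369 and 507 in that order. Renal vesicles stood clear of the duct by 2.76 (6.79-fold, adjusted p = 4.2e-06) and 2.60 (6.05-fold, adjusted p = 3.3e-05). The smaller gap between s-shaped body and duct was less firm, since after normalization the arrays overlapped for both probe sets. It was 0.80 ± 0.23 for 1417420_at (adjusted p = 0.021) and 0.53 ± 0.28 for 1417419_at (adjusted p = 0.20). The call for 1417420_at was lost without s-shaped body replicate 1 (adjusted p = 0.095), s-shaped body replicate 2 (0.075), collecting duct replicate 1 (0.066) or collecting duct replicate 2 (0.091). For 1417419_at the difference passed without collecting duct replicate 3 (0.82, adjusted p = 0.026). Over the 9 arrays the log2 levels of these probe sets followed the leading one with r = 0.950 and 0.913.

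Ccnd2, the D-type cyclin that MYC proteins are known to activate, ran the other way against the duct. Its leading probe set, 1434745_at, read 3165, 2784 and 2185 in renal vesicles, 1285, 1417 and 1788 in s-shaped bodies, and 4415, 4574 and 6864 in collecting ducts. The ducts were above every renal vesicle array, and the renal vesicles were above every s-shaped body array. Mean log2 levels were 11.38 ± 0.25, 10.57 ± 0.26 and 12.35 ± 0.26 (SD, n = 3 each). The renal vesicle was 1.97-fold below the duct (-0.97 ± 0.20 log2, adjusted p = 0.0029) and the s-shaped body 3.45-fold below it (-1.79 ± 0.20, adjusted p = 2e-05). The s-shaped body was also 1.76-fold below the renal vesicle (-0.81 ± 0.20, adjusted p = 0.007). All of these calls held under the alternatives run.

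Ccnd2 had 7 probe sets, the most of any member, and they disagreed on the renal vesicle. In s-shaped bodies against ducts, all 5 tested probe sets were lower, from -1.03 to -1.79 log2. In renal vesicles against ducts only the leading one was called. Probe set 1448229_s_at read 953, 915 and 959 in renal vesicles against 1119.9, 1195 and 1076 in ducts, a difference of -0.21 ± 0.24 (adjusted p = 0.55). Probe set 1416122_at read 1681, 677 and 450.0 in renal vesicles, 339, 615 and 459.8 in s-shaped bodies, and 1405, 1426 and 1969 in ducts. Renal vesicle replicate 1 was within the range of the ducts, and the other renal vesicle arrays were nearer the s-shaped bodies. The same array was the highest of its group for 1455956_x_at (2065, 836 and 596, ducts 1227, 1568 and 3118) and for 1430127_a_at (359, 167 and 129.8, ducts 224, 324 and 244). Differences from the duct were -0.93 (adjusted p = 0.089), -0.78 (0.22) and -0.23 (0.62) for these 3 probe sets. Without renal vesicle replicate 1, 1416122_at passed the test (-1.42, adjusted p = 0.0054).

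Between s-shaped bodies and ducts, 1416122_at differed by -1.76 (adjusted p = 0.004), 1455956_x_at by -1.76 (0.011), 1448229_s_at by -1.26 (0.0016) and 1430127_a_at by -1.03 (0.027). The s-shaped body values of 1455956_x_at were 309.5, 650.2 and 693, those of 1448229_s_at were 478, 677 and 305, and those of 1430127_a_at were 81.7, 147 and 123. Only for 1430127_a_at did several arrays decide the call, which was lost without s-shaped body replicate 1 (adjusted p = 0.11), s-shaped body replicate 3 (0.067) or collecting duct replicate 2 (0.10), and also in the fit without the filter (-1.03, adjusted p = 0.059). The call for 1455956_x_at was lost without s-shaped body replicate 1 (-1.42, adjusted p = 0.058). Between s-shaped bodies and renal vesicles, 1448229_s_at was lower (-1.05, adjusted p = 0.005), and 1455956_x_at (-0.98, adjusted p = 0.12), 1416122_at (-0.83, 0.12) and 1430127_a_at (-0.80, 0.068) did not pass. Without renal vesicle replicate 3, 1416122_at (-1.22, adjusted p = 0.023) and 1430127_a_at (-1.07, 0.024) passed there. Of the untested pair, 1416123_at read 78.5, 107 and 91.2, then 45.9, 56.9 and 24.2, then 152, 192 and 137 in renal vesicles, s-shaped bodies and ducts, the order of the leading probe set. In a fit without the filter it was lower in s-shaped bodies than in ducts (-1.43, adjusted p = 0.0027). Probe set 1416124_at stayed between 22.2 and 76.6 on all arrays. Over the 9 arrays, correlations with the leading probe set ran from 0.600 to 0.900.

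**Figure D3:**
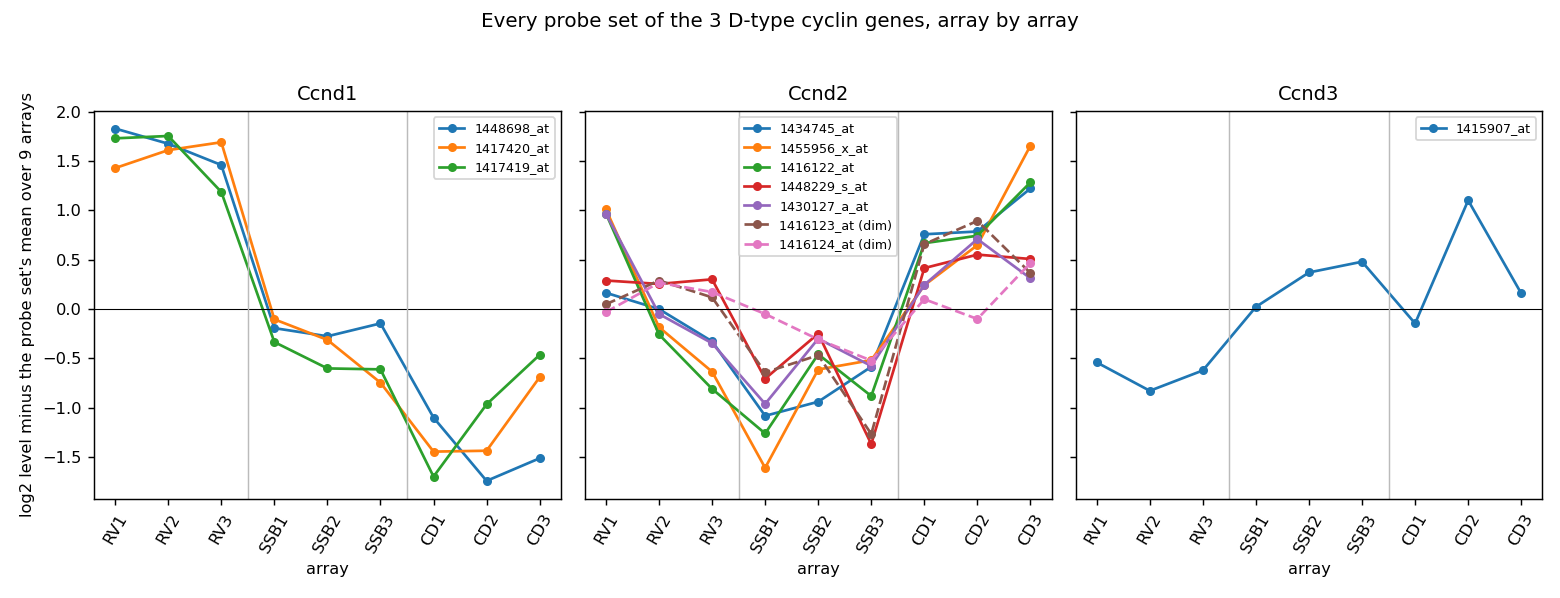
Normalized log2 level of each D-cyclin probe set minus its own mean over 9 arrays (vertical axis), array by array, with 1 line per probe set, dashed where it was too dim to be tested (RV renal vesicle, SSB s-shaped body, CD collecting duct). The 3 probe sets of Ccnd1 step down together from renal vesicle to s-shaped body, whereas for Ccnd2 the array of renal vesicle replicate 1 lies about 1 log2 unit above the mean in 3 probe sets and near it in the other 4.

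Ccnd3, the third D-type cyclin, often described in differentiating cells, was lowest in renal vesicles. Its only probe set read 247, 206 and 240.2 in renal vesicles, 419.5, 545 and 590.1 in s-shaped bodies, and 375, 914 and 452 in collecting ducts. All 3 renal vesicle arrays lay below every other array, and the s-shaped body and duct values were interleaved, with duct replicate 2 far above its group. Mean log2 levels were 8.09 ± 0.15, 9.04 ± 0.24 and 9.12 ± 0.65 (SD, n = 3 each). The renal vesicle was 2.05-fold below the duct (-1.03 ± 0.28 log2, adjusted p = 0.016), and the s-shaped body was 1.94-fold above the renal vesicle (0.95 ± 0.28, adjusted p = 0.020). The s-shaped body and duct differed by -0.08, with a 95% interval of -0.69 to 0.53 (adjusted p = 0.86). These calls were fragile. Against the duct, the renal vesicle difference was lost without renal vesicle replicate 2 (-0.95, adjusted p = 0.060) and shrank to -0.67 without duct replicate 2 (adjusted p = 0.049). Without duct replicate 2 and renal vesicle replicate 3 together it was -0.69 (adjusted p = 0.085), an alternative added after seeing the data. The difference between s-shaped body and renal vesicle was lost without renal vesicle replicate 2 (adjusted p = 0.075), s-shaped body replicate 2 (0.065) or s-shaped body replicate 3 (0.077).

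Cdk4, the kinase that pairs with the D-type cyclins, was higher in renal vesicles than in either other structure, and all 3 of its probe sets said so. The leading one, 1422441_x_at, read 5505, 5967 and 4821 in renal vesicles, 2351, 2704 and 2511 in s-shaped bodies, and 2701, 3224 and 2249 in ducts. The renal vesicle arrays lay above all others, and the s-shaped bodies fell within the range of the ducts. The renal vesicle exceeded the duct by 0.92 ± 0.16 log2 (1.9-fold, adjusted p = 0.0011) and the s-shaped body by 2.03-fold (s-shaped body minus renal vesicle -1.02 ± 0.16, adjusted p = 0.00046). Between s-shaped body and duct the difference was -0.10, with a 95% interval of -0.44 to 0.25 (adjusted p = 0.70). Probe set 1422439_a_at read 3947, 3643 and 3704, then 1653, 2014 and 1900.5, then 2337, 2575 and 1809.8, and 1422440_at read 2027, 1729 and 1488, then 809, 871 and 790.5, then 1123, 1025 and 531. They gave 1.64-fold (adjusted p = 0.0053) and 2.01-fold (adjusted p = 0.0069) for renal vesicle over duct. From renal vesicle to s-shaped body they were lower by 1.95-fold (adjusted p = 0.00069) and 2.08-fold (adjusted p = 0.0043). Their correlations with the leading probe set over the 9 arrays were 0.973 and 0.932.

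The promoter of Cdk4 is shown because the gene is a textbook MYC target and moved with Mycn, and its capitals mark the E-box letters CACGTG to which MYC and its partner MAX bind. The window covers 250 bases upstream of the gene start on the plus strand, chr10:127063285-127063534, from RefSeq (GRCm38.p6).
Cdk4: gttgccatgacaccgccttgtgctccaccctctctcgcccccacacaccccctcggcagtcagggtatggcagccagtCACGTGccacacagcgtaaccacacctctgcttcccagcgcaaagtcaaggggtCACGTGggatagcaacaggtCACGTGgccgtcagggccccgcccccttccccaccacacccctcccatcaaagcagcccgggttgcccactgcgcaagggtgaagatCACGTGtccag
The letters occurred 4 times, starting 172, 118, 98 and 11 bases before the gene start. At least 1 match was present in 1978 of 32851 mouse promoter windows of this length, or 6.02%. RefSeq windows were matched for 6 of the 10 genes (8 windows). Ccnd1, Ccnd2, Myc and Rb1 had no window and were not searched. Of the other members searched, only Cdk6 held the letters, once. A match describes the sequence and not a bound site.

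Cdk6, the other D-cyclin kinase, was dim. Its only probe set read 32.6, 29.9 and 29.1 in renal vesicles, 3.98, 32.6 and 18.5 in s-shaped bodies, and 32.7, 29.1 and 11.1 in ducts. It lay above its array's median on 0 of 9 arrays, between percentiles 4.3 and 25.1, so it was not tested. In the fit without the filter no difference passed (adjusted p from 0.22 to 0.74).

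Mycn was the transcription factor of the group that separated the structures. Its leading probe set, 1417155_at, read 3855, 3151 and 2990.3 in renal vesicles, 699, 529 and 672 in s-shaped bodies, and 416, 563 and 399.7 in ducts. All renal vesicle arrays lay above every other array, while s-shaped body replicate 2 fell below duct replicate 2. Mean log2 levels were 11.68 ± 0.18, 9.32 ± 0.21 and 8.90 ± 0.26 (SD, n = 3 each). The renal vesicle exceeded the duct by 2.78 ± 0.19 (6.88-fold, adjusted p = 8.6e-07) and the s-shaped body by 5.13-fold (s-shaped body minus renal vesicle -2.36 ± 0.19, adjusted p = 3.9e-06), and both calls held under every alternative run. Between s-shaped body and duct the difference was 0.42 ± 0.19, with a 95% interval of 0.01 to 0.84, and did not pass after adjustment (adjusted p = 0.12). The remaining Mycn probe sets were dim and untested: 1425923_at ran from 13.8 to 159 and 1425922_a_at from 29 to 48.9. They did not follow the leading probe set closely (r = -0.435 and 0.616 over 9 arrays), and neither passed a comparison without the filter.

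The promoter of Mycn is shown because, after Ccnd1, Mycn differed most between renal vesicles and ducts. Mycn also lies downstream of RB in textbook accounts of E2F control. Capitals mark the E2F letters, searched as TTTGGCGC and TTTCCCGC on both strands. The window is the 250 bases before the gene start on the minus strand, chr12:12941837-12942086, from RefSeq (GRCm38.p6).
Mycn: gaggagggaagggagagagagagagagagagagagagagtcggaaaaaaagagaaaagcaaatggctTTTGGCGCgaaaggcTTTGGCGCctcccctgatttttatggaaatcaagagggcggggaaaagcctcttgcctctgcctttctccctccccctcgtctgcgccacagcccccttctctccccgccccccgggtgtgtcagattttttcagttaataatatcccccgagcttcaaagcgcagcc
There were 2 matches, starting 183 and 168 bases before the gene start, where 427 of 32851 windows (1.3%) held at least 1. None of the other member windows held these letters, and Ccnd1, Ccnd2, Myc and Rb1 had no window to search.

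Myc itself, the family's founding member and an immediate-early gene, was measured at a modest level and showed no called difference. Its probe set read 236, 232 and 189 in renal vesicles, 186, 207 and 205 in s-shaped bodies, and 146, 163 and 257 in ducts. The ducts spanned the values of both nephron structures because duct replicate 3 had the highest deposited value of all 9 arrays. Renal vesicle minus duct was 0.34, with a 95% interval of -0.11 to 0.79 (adjusted p = 0.25). S-shaped body minus duct was 0.08 (interval -0.37 to 0.53, adjusted p = 0.81) and s-shaped body minus renal vesicle -0.25 (interval -0.70 to 0.20, adjusted p = 0.38). Without duct replicate 3, or with array weights, the renal vesicle difference passed (0.55, adjusted p = 0.046, and 0.52, adjusted p = 0.012).

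Cdkn1a, which encodes p21, was highest in collecting ducts. Its leading probe set, 1424638_at, read 267, 312 and 253 in renal vesicles, 403, 179 and 183 in s-shaped bodies, and 747, 727 and 886 in ducts. Every duct array lay above every other array, and s-shaped body replicate 1 stood above the renal vesicles while its group's other arrays stood below them. The renal vesicle was 2.54-fold below the duct (-1.35 ± 0.27 log2, adjusted p = 0.0027) and the s-shaped body 3.17-fold below it (-1.66 ± 0.27, adjusted p = 0.00047). Both calls held under the alternatives run. S-shaped body minus renal vesicle was -0.32 (adjusted p = 0.40), and without s-shaped body replicate 1 it was -0.67 (adjusted p = 0.026). The other probe set, 1421679_a_at, was near the bottom of the scale at 3.42 to 11.7 and was not tested.

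The promoter of Cdkn1a is shown because p53 acts on this gene through upstream sites, and capitals mark the match to the p53 response element (adjacent half-sites, at most 1 mismatch in 20 bases). The window lies on the plus strand at chr17:29090729-29090978, from RefSeq (GRCm38.p6), 250 bases before the start of 1 of the gene's transcripts.
Cdkn1a: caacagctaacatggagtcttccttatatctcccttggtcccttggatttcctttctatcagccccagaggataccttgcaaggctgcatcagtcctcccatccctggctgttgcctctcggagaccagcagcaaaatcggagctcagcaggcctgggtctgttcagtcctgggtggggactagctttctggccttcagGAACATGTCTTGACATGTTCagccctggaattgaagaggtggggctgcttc
The match starts 51 bases before that start, and 25 of 32851 windows (0.0761%) held one. The window of the other Cdkn1a start held none.

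Cdkn1b, which encodes p27, and Rb1 did not separate the structures. Cdkn1b probe set 1434045_at read 149, 216 and 211 in renal vesicles, 238, 186 and 230.1 in s-shaped bodies, and 156, 196 and 329 in ducts. All groups overlapped. The 95% intervals of its differences were -0.60 to 0.47, -0.57 to 0.50 and -0.51 to 0.56 for renal vesicle minus duct, s-shaped body minus duct and s-shaped body minus renal vesicle (adjusted p = 0.88, 0.93 and 0.95). Its dim probe set 1419497_at ran from 18.6 to 64.5. Rb1, whose protein is the substrate of the D-cyclin kinases, read 487, 520.2 and 677 in renal vesicles, 651, 497 and 431 in s-shaped bodies, and 745, 633 and 573 in ducts. Its differences were -0.16 (interval -0.59 to 0.28), -0.34 (-0.77 to 0.10) and -0.18 (-0.62 to 0.26) in the same order, with adjusted p of 0.60, 0.25 and 0.53.

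Among themselves the members fell into a few patterns over the 9 arrays, described by Pearson r of log2 levels of leading probe sets, where the arrays share their structure. Ccnd1 and Mycn ran together (r = 0.942), as did Mycn and Cdk4 (0.939) and Ccnd1 and Cdk4 (0.824). Ccnd2 ran with Cdkn1a (0.829). Ccnd3 ran against Ccnd1 (-0.816) and bore no relation to Ccnd2 (0.104), and Ccnd1 with Ccnd2 gave -0.416. Among genes outside the group, those most like Ccnd1 were Simc1 (0.987), Aldh2 (0.985) and Crym (0.985), and those most like Mycn were Dut (0.992), Mdk (0.987) and Syt11 (0.986). Dut encodes the enzyme that removes dUTP before DNA synthesis. Cdk4 was followed most closely by Dlgap5 (0.991), a spindle protein gene, then Snap91 (0.981) and Apex1 (0.978). Closest to Ccnd2 were Cask (0.988), Fdft1 (0.985) and Dsg2 (0.976), and closest to Cdkn1a were Tmem123 (0.989), Gsta2 (0.965) and Zfp362 (0.965). For Ccnd3 they were Wbp2 (0.967), Spns2 (0.951) and Rab11b (0.950).

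The listed MYC targets, replication genes and mitosis genes were more often higher in renal vesicles than lower. Their link to the regulators above was not tested. Over all 7998 genes, 15.1% were higher and 15.3% lower in renal vesicles than in ducts, 16.5% and 15.2% in s-shaped bodies than in ducts, and 18.2% and 17.3% in s-shaped bodies than in renal vesicles, and the counts of every list are to be read against these shares. Of 15 textbook MYC targets, 10 were higher than in the duct and 0 lower (median 0.86, all genes 0.01), and 13 were lower in s-shaped bodies than in renal vesicles (median -1.03, all genes -0.03). Cad, which starts pyrimidine synthesis, was 1.57 higher in renal vesicles than in ducts (adjusted p = 3.5e-05), and Odc1, the first enzyme of polyamine synthesis, 0.82 higher (adjusted p = 0.0042). Tfrc, the transferrin receptor, was at -0.39 in renal vesicles (adjusted p = 0.25) and -2.05 in s-shaped bodies (adjusted p = 3.5e-05), both against ducts. Shmt1, of folate metabolism, was 0.75 above the duct in renal vesicles (adjusted p = 0.019) and 0.93 below it in s-shaped bodies (-0.93, adjusted p = 0.0052). Against the duct, s-shaped bodies had 0 of 15 higher and 3 lower by limma (1 and 4 at an unadjusted p under 0.05). In the other comparisons the 0 counts of this list stayed 0 at an unadjusted p under 0.05. Without renal vesicle replicate 1, 5 MYC targets were called higher in place of 10. Over all alternatives that count ran from 5 to 13, and the count lower in s-shaped bodies than in renal vesicles from 9 to 15.

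Of 14 tested E2F targets and replication genes, 8 were higher in renal vesicles than in ducts and 0 lower (median 0.68), and 10 were lower in s-shaped bodies than in renal vesicles (median -0.91). Rrm2, which makes deoxynucleotides, was 1.22 higher in renal vesicles than in ducts (adjusted p = 1e-05), and the replicative helicase genes Mcm7 and Mcm3 were 1.13 and 1.11 higher (adjusted p = 5.6e-05 and 0.001). Between s-shaped bodies and ducts 1 was higher and 2 were lower, with Cdc6, which loads the helicase, at -0.93 (adjusted p = 0.0011). Of 9 mitosis genes, 8 were higher in renal vesicles than in ducts and 0 lower (median 0.78), led by the kinase genes Aurkb (1.04, adjusted p = 0.00045) and Bub1 (1.92, adjusted p = 0.0055). From renal vesicle to s-shaped body 5 were lower (median -0.62), and 0 passed between s-shaped body and duct in either direction. At an unadjusted p under 0.05 the limma counts of 0 among replication and mitosis genes were also 0. These counts leaned on single arrays, and against the duct they ran from 4 to 11 and from 2 to 9 over all alternatives. The mitosis count was 5 without the filter on dim probe sets. The replication count against the duct was 5 without renal vesicle replicate 3, and the mitosis count was 5 without renal vesicle replicate 1. Without renal vesicle replicate 3 and collecting duct replicate 2 together, they were 4 and 2. From renal vesicle to s-shaped body, the mitosis count was 1 without renal vesicle replicate 2, 2 without s-shaped body replicate 2, and 3 without renal vesicle replicate 1 or s-shaped body replicate 1.

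**Figure D4:**
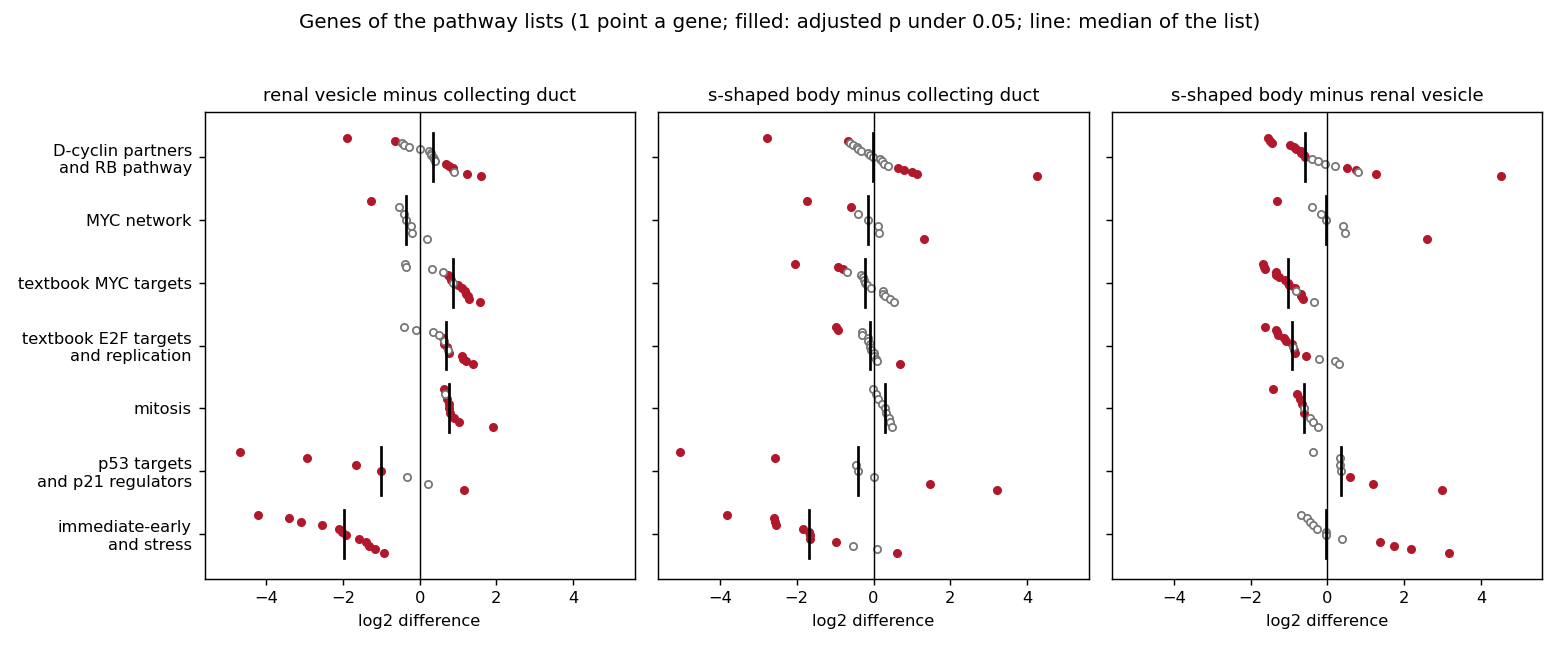
Log2 differences (horizontal axis) of each tested gene of the listed pathways in the 3 comparisons, 1 panel each, with 1 point per gene, filled where the limma adjusted p is under 0.05, and a line at the list's median. MYC targets, replication and mitosis genes lie mostly to the right of 0 in renal vesicle minus collecting duct (medians 0.86, 0.68 and 0.78) and mostly to the left in s-shaped body minus renal vesicle (medians -1.03, -0.91 and -0.62).

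The partners of the D-cyclins in the RB pathway were mixed. Of 19 tested, 6 were higher and 2 lower in renal vesicles than in ducts (median 0.35), 5 higher and 2 lower in s-shaped bodies than in ducts (median -0.0025, all genes -0.03), and 4 higher and 10 lower in s-shaped bodies than in renal vesicles (median -0.58). Cdkn1c (p57), an inhibitor of the same family as p21 and p27, was 4.25 higher in s-shaped bodies than in ducts (adjusted p = 6e-07), and its renal vesicle difference was -0.27 (adjusted p = 0.54). Skp2, part of the ubiquitin ligase that targets p27 for destruction, was 1.59 higher in renal vesicles than in ducts (adjusted p = 1.1e-05). The INK4 inhibitors, which act on CDK4 and CDK6, went separate ways. Cdkn2b was lower than in the duct in renal vesicles (-1.90, adjusted p = 0.00045) and s-shaped bodies (-2.78, adjusted p = 1.4e-05). Its intensities were 25.4 to 81.87 in renal vesicles, 13.62 to 34.97 in s-shaped bodies and 285.56 to 324.4 in ducts. Those of both nephron stages lay below their arrays' medians. Cdkn2b thus passed the filter on dim signals only through the duct arrays, which favours a call of lower. Cdkn2c was higher in s-shaped bodies than in ducts (0.81, adjusted p = 0.0031). Ccne1, the cyclin that acts after the D-type cyclins, was 0.87 above the duct in renal vesicles (adjusted p = 0.008) and was chosen after its values were seen. With renal vesicle replicate 3 and duct replicate 2 left out, 3 of this list were called higher in renal vesicles in place of 6. The 7 of 19 called between s-shaped bodies and ducts compare with 31.7% of all genes. Over all alternatives the lower count ran from 1 to 6 in that comparison and from 1 to 4 between renal vesicles and ducts, highest with array weights in both.

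Of 7 tested genes of the MYC network, which hold partners and antagonists of MYC, 0 were higher, also at an unadjusted p under 0.05, and 1 was lower in renal vesicles than in ducts (limma, median -0.35). In s-shaped bodies 1 was higher and 2 were lower than in ducts (median -0.14), and 1 was higher and 1 lower than in renal vesicles (median -0.05). Mxd4, a MAX-binding repressor, was lower than the duct in renal vesicles (-1.27, adjusted p = 0.019) and higher in s-shaped bodies (1.32, adjusted p = 0.015). Mycl, the third MYC gene, was lower in s-shaped bodies than in ducts (-1.72, adjusted p = 0.0017), with a renal vesicle difference of -0.41 (adjusted p = 0.39). The count lower in renal vesicles than in ducts was 4 with array weights and 0 without renal vesicle replicate 1, renal vesicle replicate 2 or collecting duct replicate 3. The counts higher and lower in s-shaped bodies than in ducts were 0 and 1 without s-shaped body replicate 2, s-shaped body replicate 3 or collecting duct replicate 2.

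Beside the duct level of Cdkn1a, 4 of 7 tested p53 targets and p21 regulators were lower in renal vesicles than in ducts and 1 was higher (median -1.002, all genes 0.01), where 15.3% of all genes were lower and 15.1% higher. Perp, a p53 target that is also a desmosome gene of epithelia, differed by -4.67 (adjusted p = 2.6e-08) in renal vesicles and -5.04 (adjusted p = 1e-08) in s-shaped bodies, and Btg2, an antiproliferative p53 target, by -2.92 (3e-07) and -2.56 (4.3e-07). Gadd45a, a stress-response gene, was 3.20 higher in s-shaped bodies than in ducts (adjusted p = 1.2e-05). In s-shaped bodies 2 of the 7 were higher and 2 lower than in ducts (median -0.41, all genes -0.03; 16.5% and 15.2% of all genes), and 3 were higher than in renal vesicles and 0 lower, also at an unadjusted p under 0.05 (limma, median 0.36). Immediate-early and stress genes moved with the same structures: 12 of 12 tested were lower in renal vesicles than in ducts (median -1.96), 9 were lower and 1 higher in s-shaped bodies (median -1.67), and 4 were higher in s-shaped bodies than in renal vesicles and 0 lower (median -0.04; 2 lower by limma at an unadjusted p under 0.05). The summed intensity of the 13 on the array was 57706 to 92299 in ducts, 22559 to 24667 in renal vesicles and 19274 to 28239 in s-shaped bodies. Jun, one of these genes, was at -2.09 (adjusted p = 5.9e-06) in renal vesicles and -2.55 (adjusted p = 6.2e-07) in s-shaped bodies, and the part of this sample state in the Cdkn1a, Ccnd2 and Myc values was not tested.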

How the data were processed

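Values are intensities per probe set from the deposited series table, made with GCOS per the submitters' processing notes. A genome build is not given in the sources used here, and no detection calls were used, so dimness was judged against each array's median. The deposited intensities of 9 arrays (22690 probe sets, of which 64 controls were left out) had no missing value, and 0 columns belonged to other samples. Gene names came from the platform annotation: 20380 probe sets had 1 symbol, 691 several and 1555 none, and the 10 members' gene IDs were all in the RefSeq gene table.

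Intensities were converted to log2(value + 26), 26 being their 20th percentile, and quantile normalized. Fold changes on this scale understate those of dim probe sets. Probe sets above their array's median on at least 3 of 9 arrays (12590) were fitted with limma 3.58.1 (R 4.3.3) in 1 model of 3 structures with an intensity trend, leaving 6 residual degrees of freedom. P-values were adjusted by Benjamini-Hochberg over all 12590, with a threshold of 0.05. Levels are not compared between probe sets, whose brightness differs. The procedure was tested on simulated data. Arrays are 3 per structure, and that number limits precision.

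Members were all probe sets of the 10 genes. The leading probe set had the highest mean over the arrays. For each list, up to 4 genes with the smallest F-test adjusted p could be named, and for each member passing the F test the 3 genes with the highest correlation. The members and lists were chosen with earlier results of these data known. Alternatives were the pseudocount (1 or 64), normalization, filter, array weights (limma's gene-by-gene method, because its REML method did not converge here), no trend, only the structures compared, 1 probe set per gene, a replicate block, and leaving out each array. Promoter sequences came from RefSeq (GRCm38.p6).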

Additional observations from a re-analysis of the deposited data

How the results depend on the processing

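Of 1047 member differences recomputed under alternative settings, 994 kept their direction and side of the threshold, 16 lost a call, 12 gained one and 25 changed sign, none of the last being called. Called probe sets between renal vesicle and duct were 5652 with array weights in place of 3572, and 1970 without renal vesicle replicate 3 and duct replicate 2, an alternative added after seeing the data. With 1 probe set per gene, 9 member probe sets were tested in place of 17, and 6, 3 and 5 were called in the 3 comparisons, with 6 by the F test. Leaving out 1 array gave 5 to 9 called members between s-shaped body and duct. The replicate numbers share no stated litter or day. Once group means were subtracted, same-numbered arrays of different structures correlated at -0.06 to 0.17, and differently numbered ones at -0.14 to 0.16. The replicate block gave 3671, 3622 and 4336 called probe sets (F test 5761), with 10, 8, 10 and 14 members called. Signs changed for Cdkn1b in s-shaped body minus duct (median centring 0.012, no further normalization 0.00050, array weights 0.075, leaving out 1 array -0.23 to 0.24), in renal vesicle minus duct (array weights 0.11, 1 array out -0.26 to 0.22) and in s-shaped body minus renal vesicle (array weights -0.032, 1 array out -0.10 to 0.11). With 1 array out, and with the pair of arrays out, Ccnd2 1430127_a_at in renal vesicle minus duct gave -0.61 to 0.035 and 0.18. In s-shaped body minus duct the same settings gave -0.34 to 0.29 and 0.28 for Ccnd3, -0.037 to 0.29 and -0.0023 for Myc, -0.20 to 0.029 and 0.029 for Cdk4 1422441_x_at, and -0.35 to 0.11 and 0.077 for Cdk4 1422440_at. The cause was not tested. Signals near the array median, such as Myc, and the 7 dim member probe sets limit what 3 arrays a group can show.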
